A study of Homo sapiens with 6 samples.

Results

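Of 238086 regions bound in at least 1 of 6 PAR-CLIP libraries, 1539 held a site of FMR1 isoform 7 in both its wild-type and its I304N form and no site of FMR1 isoform 1 in either form. Sites of all libraries were pooled, any that shared 1 nt or more of a strand were merged into a region, and these regions, called members here, were kept whether or not FXR1 or FXR2 had a site in them. The members made up 0.674% of the 228477 regions with an FMR1 site. They were chosen by presence and absence in the 4 FMR1 libraries, so these counts describe the choice and are not a test of isoform 7 binding.

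PAR-CLIP marks where a protein touches RNA in living cells: a photoreactive nucleoside is built into the RNA, ultraviolet light couples it to proteins in contact, and fragments recovered with the tagged protein are read out. All 6 libraries came from stable FlpIn T-REx HEK293 lines, a human embryonic kidney line, which expressed a FLAG-HA-tagged transgene. Expression was induced with 1 µg/ml doxycycline in the presence of 100 µM 4-thiouridine for 16 h before irradiation at 365 nm (0.15 J per square cm). The same RNase digestion, 15 min at 22 °C, was used for every library. The transgenes were wild-type FMR1 isoform 1, wild-type FMR1 isoform 7, I304N FMR1 isoform 1, I304N FMR1 isoform 7, wild-type FXR1 and wild-type FXR2. The labels do not say whether a line was a single clone, nor whether the cells' own FMR1, FXR1 and FXR2 had been removed. Each form had 1 library, so no value has a replicate error, and the 95% intervals given below are exact Clopper-Pearson intervals that cover counting error only.

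FMR1 is the RNA-binding protein whose gene is silenced in fragile X syndrome. It contacts RNA through KH domains and an RGG region, associates with ribosomes and is best known as a regulator of translation in neurons. Its transcript is spliced into several isoforms, of which isoform 7 is shorter than isoform 1. I304N changes an amino acid of the second KH domain and is known for weakening the association with polyribosomes. FXR1 and FXR2 are paralogs with the same kinds of RNA-binding domains. The 6 libraries ranged from 9017 sites (FXR1) to 132219 sites (I304N isoform 1), and the isoform 7 lists, with 78495 (wild type) and 88644 (I304N) sites, were shorter than the isoform 1 lists, with 121903 and 132219. Genes, transcript parts and sequences under the positions were not analysed here.

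Isoform 7 seldom stood alone in both libraries. The wild-type and I304N isoform 7 libraries shared 34539 regions, and members were 4.46% of these. The others held an isoform 1 site: 21684 in both isoform 1 libraries, 10620 in I304N isoform 1 alone and 696 in wild-type isoform 1 alone. When one isoform 1 library accompanied the isoform 7 pair, it was therefore mostly the I304N one. Read from the other side, 20198 regions held a wild-type isoform 7 site and no isoform 1 site, and 7.62% of them also held an I304N isoform 7 site. Of the 17946 regions with an I304N isoform 7 site and no isoform 1 site, 8.58% also held a wild-type isoform 7 site. For the mirror class, the 11954 regions in both isoform 1 libraries and neither isoform 7 library, these shares were 16.7% of the wild-type and 24.2% of the I304N regions. Pairs that differed in both isoform and form were also more numerous than members. Wild-type isoform 7 with I304N isoform 1 only had 7019 regions, 27.3% of wild-type isoform 7 regions without sites of the excluded FMR1 libraries. Wild-type isoform 1 with I304N isoform 7 only had 2088, 11.3% of the I304N isoform 7 regions so defined. Of the isoform 1 regions so defined, the first pair made up 15.8% for I304N and the second 3.38% for the wild type. That last share was below both shares of the members. Members were the smallest of the classes found in a pair of FMR1 libraries only. The lists differ in length, and these shares rest on the counts that define the classes.

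Most members lay close to an isoform 1 site that they did not touch. The median distance to the nearest isoform 1 site on the same strand was 60 nt, with quartiles of 18 and 294 nt. An isoform 1 site lay within 10 nt of 260 members and within 100 nt of 912 members, or 59.3% (56.8 to 61.7). Among all 36605 regions with an isoform 7 site and no isoform 1 site, 41.9% had one within 100 nt. The share was 32.0% (31.3 to 32.7) for the 18659 regions found in wild-type isoform 7 alone and 51.5% (50.7 to 52.3) for the 16407 found in I304N isoform 7 alone, so the regions seen in both isoform 7 libraries lay nearer to isoform 1 sites than those seen in one, beyond counting error. In the mirror class, 48.3% (47.4 to 49.2) had an isoform 7 site within 100 nt. The isoform 7 lists hold 167139 sites in all against 254122 for isoform 1, and the part of list length in this difference was not tested. Regions in both I304N libraries only reached 42.4% and regions in both wild-type libraries only 43.2%, measured to the libraries they lack. Members were not alone in being this close: regions that paired I304N isoform 7 with wild-type isoform 1 reached 64.6% (62.5 to 66.6).

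**Figure D1:**
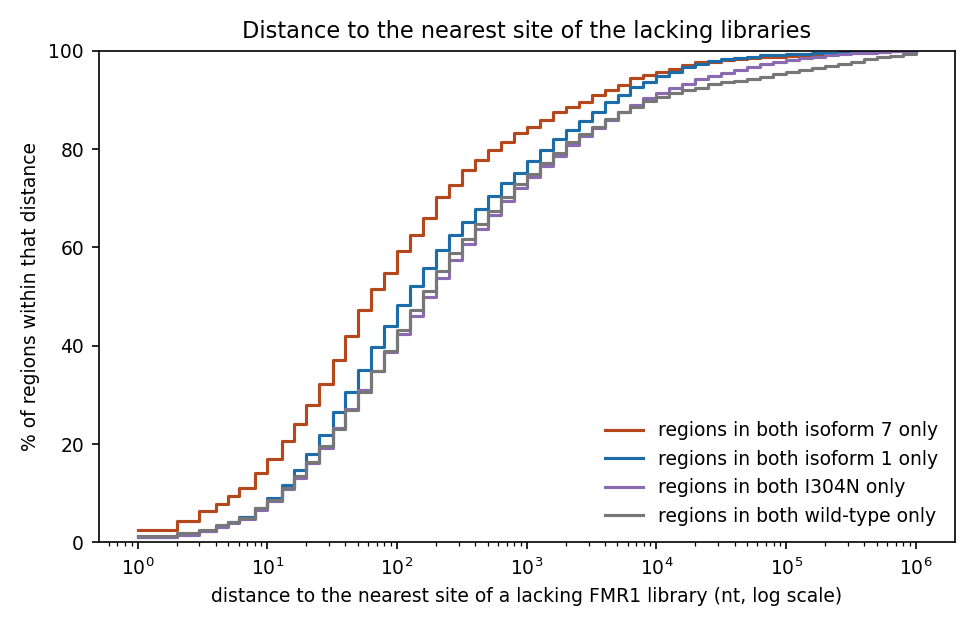
Share of regions (vertical axis, %) whose nearest site of a lacking FMR1 library lies within the distance on the horizontal axis (nt, log scale), for members and 3 other classes of regions found in a pair of FMR1 libraries only. The curve of the members lies above the others drawn up to about 10000 nt. It passes 59.3% at 100 nt, against 48.3% for regions in both isoform 1 libraries only. Regions of wild-type isoform 1 and I304N isoform 7 only, which are not drawn, reach 64.6% at 100 nt.

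The rule turns on an overlap of 1 nt, and many members sat just inside it. The gap to isoform 1 was 0 nt in 3 members and at most 2 nt in 67. Just outside, 14 regions of both isoform 7 libraries touched isoform 1 sites by no more than 2 nt, and 179 by no more than 10 nt. The 3 members with no gap were on chromosome 14 from 105219547 to 105219578 (plus strand), chromosome 20 from 31443097 to 31443129 (plus strand) and chromosome 6 from 163986364 to 163986384 (plus strand). The one on chromosome 20 abutted sites of both isoform 1 libraries and had 19 sites of wild-type isoform 1 within 1000 nt, the abutting one included. The one on chromosome 14 abutted an I304N isoform 1 site, while its nearest wild-type isoform 1 site was 77792 nt away. All positions are hg19.

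The isoform 1 sites near members came mainly from the I304N library. The median distance was 87 nt to I304N isoform 1 and 504 nt to wild-type isoform 1. The nearest isoform 1 site was from the I304N library for 1157 members and from the wild-type library for 337, and both were equally near for 45. I304N isoform 1 had a site within 100 nt of 820 members and wild-type isoform 1 of 469, with 377 members in both counts. The order was the same for regions of a single isoform 7 library. Those of the wild type alone lay 1607 nt from I304N isoform 1 and 5075 nt from its wild-type form, and those of I304N alone 114 and 1566 nt. The nearest site lay downstream on the transcript strand for 769 members and upstream for 764, so the sides differed by less than counting error (50.0% downstream, 47.4 to 52.5).

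**Figure D2:**
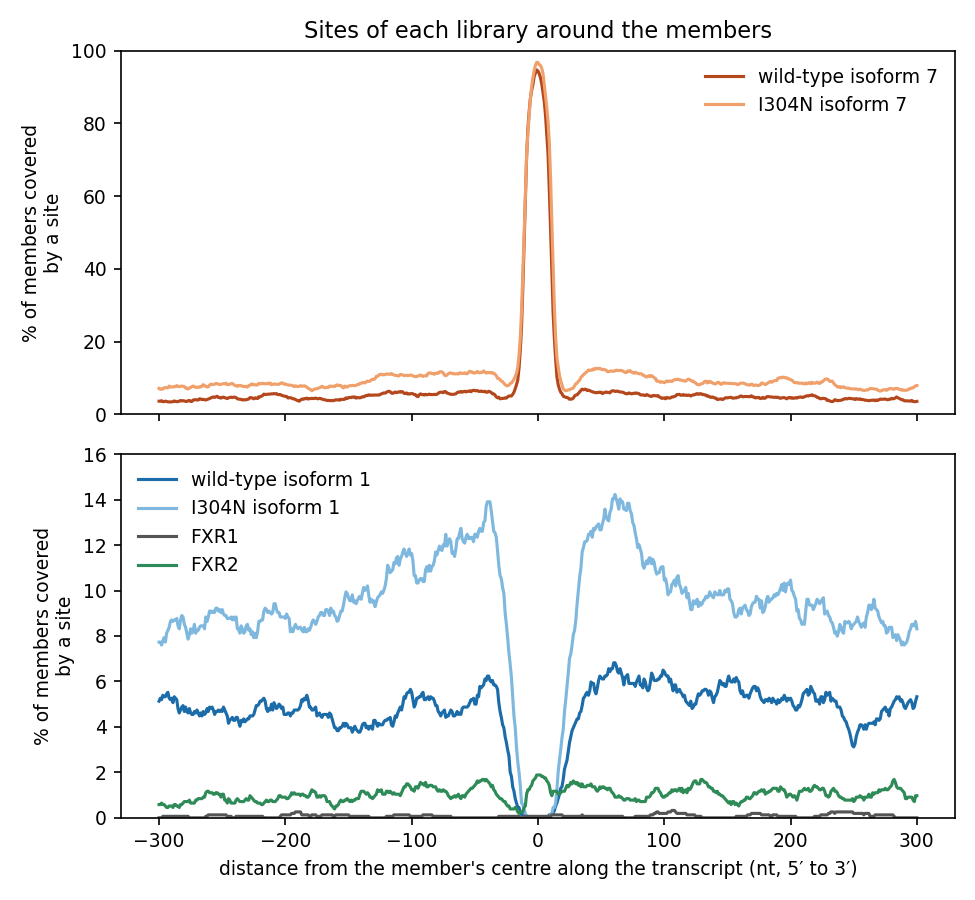
Share of the 1539 members (vertical axes, %) covered by a site of each library at each distance from the member's centre (horizontal axis, nt, read 5 prime to 3 prime). Isoform 7 coverage peaks at the centre by the choice of members, isoform 1 coverage is 0 there by the same choice, and I304N isoform 1 reaches 14.2% of members at 61 nt downstream and 13.9% at 40 nt upstream, against a mean of 8.66% between 200 and 300 nt.

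Most members had an isoform 1 site within 1000 nt, though isoform 1 neighbours per isoform 7 neighbour were fewer than in the full lists. Within 1000 nt, 57.9% of members (55.4 to 60.4) had a wild-type isoform 1 site and 81.6% (79.6 to 83.5) an I304N isoform 1 site. Other sites of wild-type isoform 7, besides the member's own, lay within that distance of 70.4% of members, and other sites of I304N isoform 7 of 77.5%. More isoform 1 than isoform 7 neighbours were counted for 622 members, more isoform 7 neighbours for 587 and equal numbers for 330. In total there were 1.07 isoform 1 neighbours for each isoform 7 neighbour, while the full lists hold 1.52 isoform 1 sites for each isoform 7 site. For 162 members no FMR1 library had another site within 1000 nt, and for 78 the neighbours were of isoform 7 only.

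The members were short, and both isoform 7 sites coincided over most of their length. Region width had a median of 25 nt (quartiles 21 and 29, range 11 to 77). The median width was 29 nt in the mirror class and 52 nt in regions shared by all 4 FMR1 libraries, where more sites are joined. It was 25 nt (quartiles 21 and 30) in regions of wild-type isoform 7 and I304N isoform 1 only, as in members. Of the 1539 members, 1500 held 2 sites in all, 38 held 3 and 1 held 4. The wild-type isoform 7 sites in members averaged 20.6 nt (SD across sites 6.42) against 23.2 nt (SD 11.2) for that whole library, and the I304N isoform 7 sites 22.3 nt (SD 7.74) against 28.2 nt (SD 18.5). The rule leaves out any region that touches an isoform 1 site, and its part in these widths was not tested. The median overlap of the 2 sites was 17 nt, and 51 members rested on an overlap of 5 nt or less. This overlap was not particular to members: the median was also 17 nt in the mirror class, and 16 to 20 nt across the other pair classes.

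Ends of the sites often matched to the nucleotide. Both ends were identical in 89 members, 5.78% (4.67 to 7.07), the 5 prime end in 355, 23.1% (95% interval 21 to 25.3), and the 3 prime end in 280, 18.2% (16.3 to 20.2). In the mirror class the isoform 1 pair had both ends identical in 2.14% of regions (1.89 to 2.42) and the 5 prime end in 16.6% (15.9 to 17.3). Regions in both I304N libraries only were higher than members on both measures, at 7.97% (7.59 to 8.35) and 27.5% (26.9 to 28.2). Every pair class that included wild-type isoform 1 had the 5 prime end in common less often, at 16.5% to 18.2%, than the 3 that did not, at 23.1% to 27.5%. Within these pairs the wild-type isoform 1 site was the wider one, with a median of 24 nt against 20 nt in the mirror class, while in members the medians were 20 and 21 nt. The part of width in this was not tested.

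FXR1 and FXR2, which the rule left free, were nearly absent from the members. FXR2 had a site in 33 members, 2.14% (1.48 to 3.0), and FXR1 in 1, 0.0650% (0.00164 to 0.361), while 10.2% of all regions with an FMR1 site held an FXR2 site and 2.76% an FXR1 site. In the mirror class the shares were 12.5% (11.9 to 13.1) for FXR2 and 3.6% (3.27 to 3.95) for FXR1. The difference of members from the mirror class was -10.4 percentage points for FXR2 (-11.3 to -9.43) and -3.53 for FXR1 (-3.89 to -3.17), by normal approximation.

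The FXR share followed wild-type isoform 1 across the pair classes. The 3 classes with a wild-type isoform 1 site had FXR2 in 10.1% to 12.5% of regions and FXR1 in 3.35% to 4.89%. Without one, FXR2 was found in 4.17% of regions in both I304N libraries only (3.89 to 4.45), in 4.17% of regions in wild-type isoform 7 and I304N isoform 1 only (3.72 to 4.67) and in 2.14% of members. The FXR1 shares of these classes were 0.192% (0.136 to 0.263), 0.541% (0.383 to 0.742) and 0.0650%. Members thus had the lowest FXR2 share of the 6 pair classes, by -2.02 percentage points (-2.80 to -1.25) against both I304N only. For FXR1 that difference was -0.127 points (-0.268 to 0.0142), not beyond counting error. A region found in a single isoform 7 library held an FXR2 site less often still. The shares were 1.09% for the wild type alone (0.949 to 1.25) and 1.08% for I304N alone (0.932 to 1.26). FXR1 did not keep this order. It was in 1.02% of regions of wild-type isoform 7 alone (0.884 to 1.18), above members, although these regions hold no isoform 1 site. For I304N isoform 7 alone the FXR1 share was 0.0609% (0.0292 to 0.112), near that of members.

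**Figure D3:**
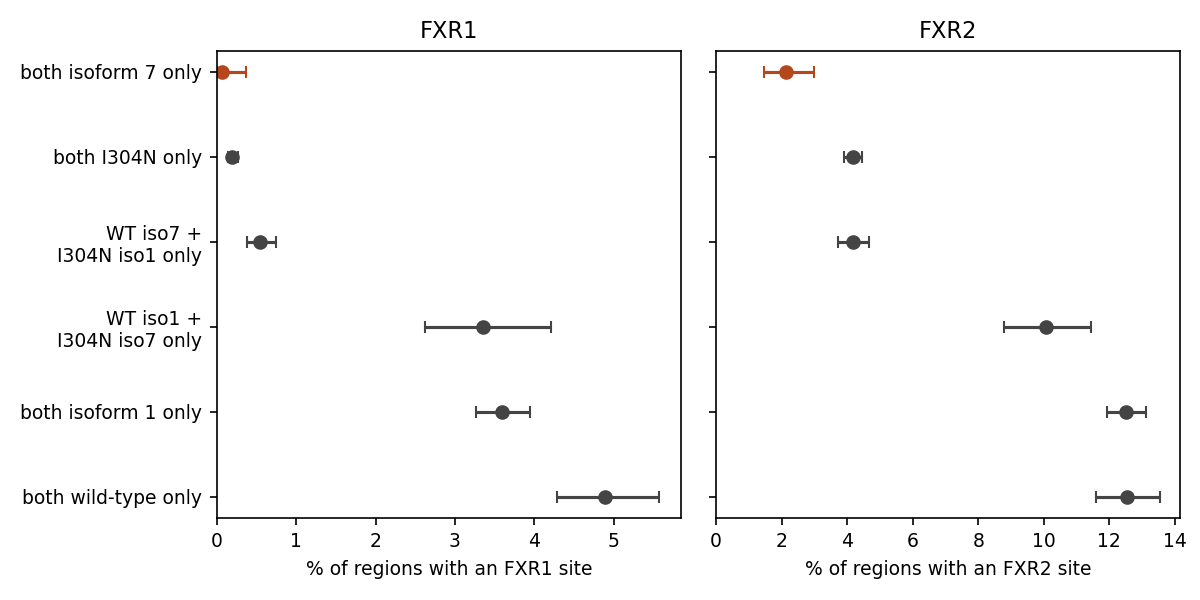
Share of regions with an FXR1 site (left, %) and with an FXR2 site (right, %) in 6 classes of regions found in exactly one pair of FMR1 libraries, with points for the shares and bars for exact 95% counting intervals. Members, at the top, sit at 0.0650% and 2.14%, and the 3 classes that include wild-type isoform 1 (lower rows) at 3.35% to 4.89% and 10.1% to 12.5%.

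Width and joining left members with the lowest FXR2 share of the pair classes, though the width limit narrowed the differences. Among regions of 20 to 30 nt with exactly 2 FMR1 sites, a limit chosen after seeing the data, FXR2 was present in 1.5% of 1001 members (0.841 to 2.46) and in 7.95% of 5947 regions of the mirror class (7.28 to 8.67). There the FXR2 difference was -6.46 percentage points (-7.47 to -5.44) against the mirror class. Against both I304N only it was -1.07 points (-1.88 to -0.266). FXR1 had no site in these 1001 members, which allows a share of up to 0.300% by a limit of 3 counts and 0.368% by the exact interval, against 1.11% in the mirror class (0.859 to 1.41). An FXR site can bridge an isoform 7 and an isoform 1 site and so remove a region from the members. With regions joined from the FMR1 libraries alone there were 1543 members, of which 37 overlapped an FXR2 site, 2.40% (1.69 to 3.29), against 12.5% in the mirror class. At longer range, FXR2 had a site within 1000 nt of 37.2% of members (34.7 to 39.6), close to the 37.4% (36.7 to 38.1) of regions in both I304N libraries only and below the 59.4% (58.5 to 60.2) of the mirror class.

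Of the 33 members with an FXR2 site, 27 lay within 100 nt of an isoform 1 site, and the FXR2 site overlapped both isoform 7 sites in 32. They were spread over 16 chromosomes, with 7 on chromosome 19. On chromosome 19 from 10803035 to 10803053 (plus strand), the FXR2 site and both isoform 7 sites had the same ends, and the nearest isoform 1 site, from the I304N library, was 49 nt away. The single member with both FXR1 and FXR2 was on chromosome 19 from 40308485 to 40308523 (minus strand). There wild-type isoform 7 covered 40308487 to 40308499 and I304N isoform 7 40308497 to 40308523, a wild-type isoform 1 site lay 8 nt away, and wild-type isoform 1 had 16 sites within 1000 nt. On chromosome 2 from 242662380 to 242662423 (plus strand) the FXR2-bound member had no FMR1 neighbour within 1000 nt, and its nearest isoform 1 site was 2638 nt away.

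A small group of members was far from isoform 1. More than 10000 nt separated 66 members, 4.29%, from any isoform 1 site on their strand, and more than 100000 nt separated 16. The 66 lay on 20 chromosomes, no 2 of them fell in the same window of 50 kb, and 11 had another isoform 7 site within 1000 nt. None held an FXR2 site, which allows a share of up to 4.55% by a limit of 3 counts and 5.44% by the exact interval. Both ends of the isoform 7 sites were identical in 9 of the 66, 13.6% (6.43 to 24.3), against 5.78% of all members. A repeat flag, by which the authors mark sites in repeats, was on 6 of the 66, 9.09% (3.41 to 18.7), and on 62 of all members, 4.03% (3.10 to 5.13), against 4.9% of all regions with an FMR1 site.

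The member farthest from isoform 1 was on chromosome 1 from 5171976 to 5171991 (plus strand), 987618 nt from the nearest I304N isoform 1 site, and its 2 isoform 7 sites were identical. The next was on chromosome X from 63653458 to 63653485 (plus strand), at 974595 nt, where the I304N site was 1 nt shorter at each end. Then came chromosome 7 from 96339086 to 96339109 (minus strand, 520457 nt), chromosome 13 from 74708265 to 74708280 (minus strand, 287871 nt) and chromosome 2 from 153004608 to 153004632 (minus strand, 264746 nt). None of these 5 carried a repeat flag, and none had another FMR1 site within 1000 nt.

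Chromosome 1 held most members, 175 or 11.4% (9.83 to 13.1), close to its 11% of all regions with an isoform 7 site. Chromosome 19 followed with 150 or 9.75% (8.31 to 11.3). That interval includes the 8.39% of all regions with an isoform 7 site and lies above the 4.46% (4.10 to 4.84) of the mirror class. Against all regions with an isoform 7 site, the members' share was higher beyond counting error on chromosome 7 (6.11%, 4.96 to 7.42, against 4.85%), chromosome 14 (5.13%, 4.08 to 6.36, against 3.57%) and the mitochondrial genome. It was lower on chromosomes 2 (3.83% against 5.01%) and X (1.88% against 3.03%). For the other 20 sequences the interval included the share of all regions with an isoform 7 site. These intervals treat neighbouring members as independent, and no allowance was made for the number of sequences compared. Members did gather in places. On chromosome 14, the 50 kb windows starting at 105350001, 105600001 and 105900001 held 5, 4 and 3 members, and the mitochondrial minus strand held 12.

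**Figure D4:**
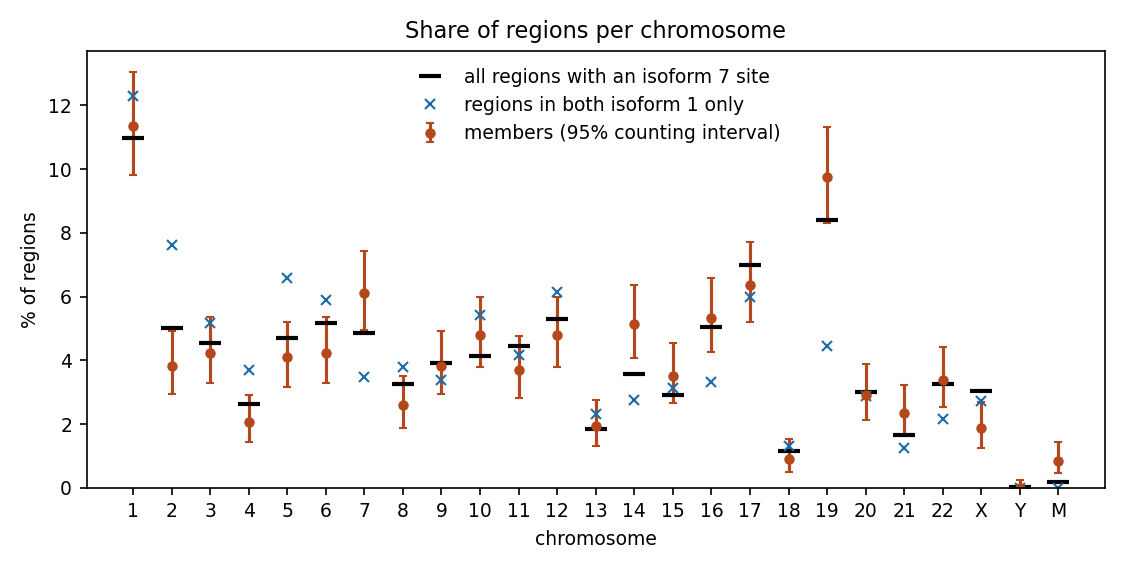
Share of regions (vertical axis, %) on each chromosome (horizontal axis, M is the mitochondrial genome) for members, with exact 95% counting intervals, for all regions with an isoform 7 site and for regions in both isoform 1 libraries only. Members and isoform 7 regions share high values on chromosome 19, 9.75% and 8.39%, where the regions in both isoform 1 libraries only reach 4.46%.

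Members were scattered: 1011 windows of 50 kb held a single member, 153 held 2, 43 held 3, 12 held 4, 3 held 5, 3 held 6 and 1 held 12. Over all 119395 regions with an isoform 7 site, 1.29% were members, and the shares in single windows below can be read against that. The window with 12 was the minus strand of the mitochondrial genome. Members were 12.2% (6.49 to 20.4) of its 98 regions with an FMR1 site, against 0.674% of all such regions. It was picked for holding most members, and the interval does not allow for that choice, so this is a description and not a test. The share among all regions with an isoform 7 site, 1.29%, is the closer base, since each of the 98 held one. With strand ignored, no window held more than 6 members. The plus strand, which most mitochondrial messenger RNAs follow, had 1 member among 142. The minus strand carried 99 sites of wild-type isoform 7, 55 of I304N isoform 7, 41 of I304N isoform 1 and 21 of wild-type isoform 1, and none of FXR1 or FXR2. All 98 regions held an isoform 7 site. In the minus-strand members, wild-type isoform 7 sites spanned 30 to 71 nt, against a median of 20 nt over all members. In the member from 15610 to 15680 that site spanned the whole 71 nt and the I304N isoform 7 site 13 nt. At 8917 to 8955 the I304N isoform 7 site was the wider, 39 nt against 34 nt. The widths were equal at 6363 to 6410 and at 14857 to 14925. Neither strand held a region of both isoform 1 libraries only.

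Among nuclear windows, 3 held 6 members. On chromosome 19 from 40750001 to 40800000 (minus strand), isoform 7 was dense, with 35 sites in the wild type and 62 in I304N, against 4 and 24 for isoform 1. Its 6 members lay within 40784614 to 40788251, at 60 to 771 nt from isoform 1, and included the widest of all, 77 nt from 40788175 to 40788251, where the I304N site spanned the whole region and the wild-type site 20 nt of it. On chromosome 12 from 49400001 to 49450000 (minus strand) all 4 FMR1 libraries were dense, with 172 to 224 sites, and the 6 members were 2.88% of 208 regions with an isoform 7 site. They lay at 3 to 119 nt from isoform 1. On chromosome 1 from 36350001 to 36400000 (plus strand) isoform 1 had 48 sites in the wild type and 37 in I304N, and isoform 7 had 44 and 16. Of its 6 members 4 lay at 48 to 73 nt from isoform 1, and the others at 1167 and 4684 nt.

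The windows with 5 members lay on chromosome 14 from 105350001 to 105400000 (plus strand), chromosome 12 from 124800001 to 124850000 (minus strand) and chromosome 16 from 550001 to 600000 (plus strand). In these 3, wild-type isoform 1 was sparse, with 2, 11 and 5 sites, where I304N isoform 1 had 30, 30 and 58. Wild-type isoform 7 had 16, 40 and 37 sites, and I304N isoform 7 had 42, 26 and 86. On chromosome 16, a member from 599410 to 599427 lay 1 nt from an I304N isoform 1 site and 3388 nt from a wild-type one. Of the 12 windows with 4 members, the 3 with the highest share of members among their isoform 7 regions are named. A place on chromosome 3 from 126750001 to 126800000 (plus strand) had all 4 within 126753069 to 126754253, at 8 to 213 nt from isoform 1. The others were on chromosome 10 from 102300001 to 102350000 (plus strand) and chromosome 14 from 105600001 to 105650000 (minus strand), with 9.09% of their isoform 7 regions as members in each.

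**Figure D5:**
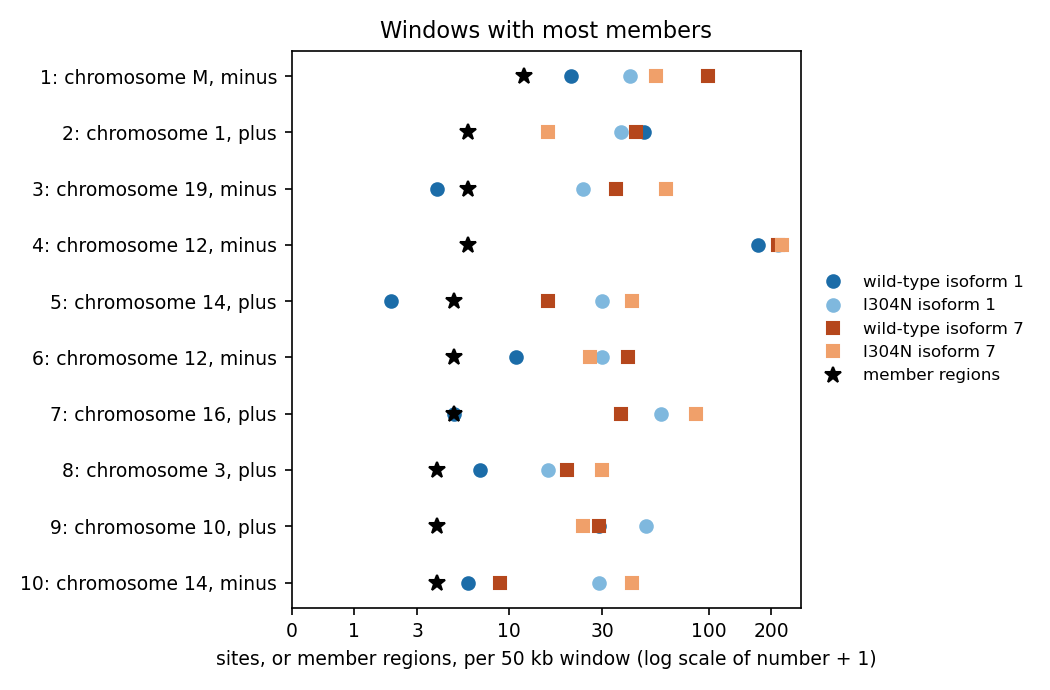
Number of sites of each FMR1 library (circles and squares) and of member regions (stars) in the 10 windows of 50 kb with most members (rows, ties ordered by the share of members), on a log scale of the number plus 1, where M is the mitochondrial genome. The mitochondrial minus strand has 12 members, and the window in the fourth row, on chromosome 12, has 172 to 224 sites in every FMR1 library and 6 members.

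Apart from that strand, the windows with members in which isoform 7 sites most outnumbered isoform 1 sites were not among those with most members, although their shares lay above 1.29%. On chromosome 16 from 88800001 to 88850000 (minus strand), with 11 and 99 sites in wild-type and I304N isoform 7 against 1 and 11 in isoform 1, 3 of 103 regions with an isoform 7 site were members. On chromosome 21 from 45200001 to 45250000 (plus strand), with 11 and 89 against 0 and 23, there were 2 of 95. In both windows the wild-type isoform 7 library had 11 sites, which limits how many regions can hold both isoform 7 forms.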

How the data were processed

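The submitters' processing notes name Bowtie 0.12.7 and the build hg19. How sites were called, and with which cut-offs, is not given in the sources used here. The deposited score is a flag, per the file headers: 1000 outside repeats and 0 in a repeat. Read numbers per site are not analysed here, so all sites count equally, and how deeply each library was sequenced can change its number of sites. The annotation at hand is on another build and was not used, so the planned transcript classes, gene lists, motifs and sequences were not analysed here.

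Regions were built with Python 3.11.15 and pandas 2.3.3, and intervals computed with scipy 1.17.1. The joining and distance steps were tested on simulated sites. Starts were read as 0-based and are printed 1-based. Distances are nucleotides between a region and a site on its strand. Windows are 50 kb, strand-specific, by the region's or site's midpoint. Named were the 10 windows with most members (ties by share of isoform 7 regions that were members, a tie rule chosen after seeing the data), the extremes of width and distance, and members with FXR sites, of which a selection is given. The members and comparisons were chosen with earlier results of these data known. No p-value was computed, because each form had 1 library and regions are not replicates. Counting intervals do not cover the spread between experiments.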

Additional observations from a re-analysis of the deposited data

How the results depend on the processing

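Joining across gaps of up to 10 nt, joining only at overlaps of at least 10 nt, ignoring strand, leaving out repeat-flagged sites and leaving out mitochondrial sites gave 1336 to 1548 members. Leaving out members with an isoform 1 site within 50 nt left 810, by construction. In that set 22.6% lay within 100 nt of isoform 1, 5.43% carried a repeat flag, FXR1 was in 0 members, FXR2 in 1.48%, and the fullest window held 7. The share within 100 nt was 49.6% with gaps of up to 10 nt joined and 63.0% when an overlap of at least 10 nt was needed. The fullest window held 6 members without mitochondrial sites and 6 with strand ignored, in place of 12. In members of 20 to 30 nt with 2 FMR1 sites, FXR1 was in 0. It was in 2 members with gaps of up to 10 nt joined (0.150%) and in 2 without repeat-flagged sites (0.129%), against 1 (0.0650%). The FXR2 share ranged from 1.48% to 2.97% over these alternatives, and that of identical ends from 4.81% to 6.09%. Reading site ends as inclusive, chosen after seeing the data, also gave 1539 members, though not all the same ones, with FXR2 in 2.27%. Transcript classes and motifs were not run. No paired analysis was possible because each form had 1 library and no test was made. Which sequencer read which library is not stated in the labels, so its part was not tested.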

Other observations

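In one window, singled out after its values were seen, every region with an isoform 7 site was a member. It was on chromosome 10 from 92650001 to 92700000 (plus strand), with 3 such regions, 3 sites in each isoform 7 library, 2 in I304N isoform 1, none in wild-type isoform 1 and 2 in FXR2.

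Site names carry a number before the point that neighbouring sites of a library can share. In members, 5.97% of wild-type isoform 7 sites (4.84 to 7.28) shared it with another site, against 11.3% of that library, and 17.9% of I304N isoform 7 sites (16.1 to 19.9), against 26.7%.

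No 2 sites of one library overlapped or lay end to end, while gaps of 1 nt occurred in every library, from 45 in FXR1 to 374 in I304N isoform 1. Whether the deposited ends are inclusive was not settled. If they are, widths are 1 nt larger and gaps 1 nt smaller than given. The 3 members with no gap to isoform 1 would then touch it and leave the set. The total stayed at 1539 under that reading, so other regions entered.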
